A study of Mus musculus with 6 samples.

Results

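The interleukin 1 family is described here through 9 genes, Il1a, Il1b, Il33, Il18, Il1rn, Il1r1, Il1rap, Il1rl1 and Il1r2, in single cells of mouse dorsal skin that was shaved and waxed to start hair regrowth. The 9 members were the rows of the expression matrices that carry these symbols, out of 32285 genes counted. Skin of wildtype male mice of the FVB strain, aged p55-57, was taken at 6 times after depilation, namely 0, 4 and 16 h and 2, 4 and 6 d, and the labels give shaving and waxing for the mice of every time point, 0 h included. Each time point was 1 library, made of the cells of 2 mice digested separately and mixed in equal number, so the cells of one mouse cannot be separated from those of the other. With 1 library per time point there is no replicate of a time point, and no test between a pair of time points was made.

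Interleukin 1α (Il1a) and interleukin 1β (Il1b) are alarm cytokines that act through the receptor Il1r1 together with its partner chain Il1rap, and the adaptor Myd88 then activates NF-kB. Il1rn encodes the receptor antagonist, which occupies Il1r1 without signalling, and Il1r2 encodes a decoy receptor that binds interleukin 1 but lacks the signalling domain. Interleukin 33 (Il33) is a nuclear cytokine of barrier epithelia, released on damage and read by Il1rl1 (ST2) with Il1rap, and interleukin 18 (Il18), like interleukin 1β, is made as a precursor that caspase 1 cleaves. Keratinocytes are known to store interleukin 1α and to make the antagonist, and Langerhans cells are the resident antigen-presenting cells of the epidermis.

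All 9 members were found in the GENCODE vM21 annotation of GRCm38 as protein-coding genes under the identifiers used in the files. Il1r2 (chromosome 1, 40074079 to 40125231), Il1r1 (chromosome 1, 40225080 to 40317257) and Il1rl1 (chromosome 1, 40429570 to 40465415) lie in one stretch of the plus strand. Il1rn is on chromosome 2 at 24336853 to 24351494 on the plus strand, whereas Il1a (129299610 to 129309972) and Il1b (129364570 to 129371139) lie on the minus strand of chromosome 2. Il18 (chromosome 9, 50554827 to 50581840), Il1rap (chromosome 16, 26581704 to 26730117) and Il33 (chromosome 19, 29925114 to 29960718) are on the plus strand. An exon of Il1r2, Il1a, Il1b, Il18 and Il1rap is overlapped by a counted gene of the other strand (Gm16894, Gm14023, Il1bos, Bco2 and Gm20319). The strand setting of the counting is not given in the sources used here.

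The sequence before the start of 4 members is shown because 3 of them, Il1r2, Il1rn and Il1rap, were lower together in basal epidermis at 4 h, and the fourth, Il1b, was high in Langerhans cells at the same time. Each run is the 250 bases before a RefSeq start on the gene's own strand, GRCm38.p6, 5′ to 3′, from chr1:40085843-40086092 (plus), chr2:24336610-24336859 (plus), chr16:26581455-26581704 (plus) and chr2:129371140-129371389 (minus). Capitals mark matches, on either strand, to the AP-1 letters TGANTCA, the NF-kB motif, the TATA box letters TATAAA or the E-box letters CACGTG.
Il1r2: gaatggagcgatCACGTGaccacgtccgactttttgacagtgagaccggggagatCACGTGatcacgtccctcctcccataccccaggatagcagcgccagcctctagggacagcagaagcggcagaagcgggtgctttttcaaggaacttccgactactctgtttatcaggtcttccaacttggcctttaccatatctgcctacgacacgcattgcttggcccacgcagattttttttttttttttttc
Il1rn: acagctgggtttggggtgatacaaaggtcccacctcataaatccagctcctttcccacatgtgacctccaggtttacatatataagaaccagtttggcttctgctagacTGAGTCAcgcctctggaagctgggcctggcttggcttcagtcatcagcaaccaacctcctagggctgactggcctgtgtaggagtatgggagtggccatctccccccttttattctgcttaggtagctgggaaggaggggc
Il1rap: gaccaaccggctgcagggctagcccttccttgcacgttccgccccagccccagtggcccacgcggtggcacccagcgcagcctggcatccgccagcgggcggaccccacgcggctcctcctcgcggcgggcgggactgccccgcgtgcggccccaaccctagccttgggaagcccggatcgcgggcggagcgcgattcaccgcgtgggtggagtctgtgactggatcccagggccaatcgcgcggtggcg
Il1b: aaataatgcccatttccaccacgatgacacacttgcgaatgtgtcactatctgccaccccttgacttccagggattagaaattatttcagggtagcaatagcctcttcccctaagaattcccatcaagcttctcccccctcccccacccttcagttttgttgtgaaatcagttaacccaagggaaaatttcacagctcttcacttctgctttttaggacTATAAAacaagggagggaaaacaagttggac

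Of these motifs, Il1r2 held 2 E-box matches, Il1rn held 1 AP-1 match, Il1b held 1 TATA box match and Il1rap held none. Over the 32851 RefSeq starts of the same length, 6.02% held an E-box match, 6.75% an AP-1 match, 12.4% a TATA box match and 0.356% an NF-kB match. No motif was shared by Il1r2, Il1rn and Il1rap in these windows. All 9 members had a start in the table, with 3 starts for Il1rn, of which the first is shown, and the counts do not show which start was used.

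The libraries held 61031 barcodes, between 7307 and 13878 each, and between 72634390 and 112370376 unique molecular identifiers (UMIs, counted molecules) each. After filters and removal of predicted doublets 50502 cells remained in 14 clusters, which markers put into 13 cell types. Of 60599 barcode sequences, 430 occurred in more than 1 library. Clustering did not use the members, the other pathway genes or genes of the cell cycle. The types were basal and suprabasal interfollicular epidermis (IFE.B, 16648 cells, and IFE.SB, 7744), basal and suprabasal upper hair follicle (uHF.B, 6064, and uHF.SB, 4965), outer bulge (OB, 6541), a cluster given the name IRS3 (2065) and inner root sheath (IRS, 286, in 2 libraries). The others were sebaceous gland (SG, 1880), Langerhans cells (802), dendritic epidermal T cells (DETC, 2426), other lymphocytes (292), melanocytes (584) and dermal papilla with fibroblasts (205). The IRS3 cluster was led by Wfdc18 and Krt75, a companion layer keratin, and Fgf18 and Sncg were also among its 10 leading genes. With the clustering at resolution 0.4 in place of 0.2 all of its 109 cells at 0 h and all 111 at 4 h fell into a cluster named Inner bulge from its markers, against 217 of 855 at 4 d. The OB cells were divided in the same way at 4 h, when 351 of 658 were in the Inner bulge cluster, and at 16 h, when 198 of 638 were, but at 0 h none of 386 were and at the later times at most 1.17% were. OB at 4 h and 16 h thus held cells that the finer clustering named otherwise, and its values are given below with both clusterings. Levels are a gene's UMIs relative to all UMIs of the cell type in that library, on the counts-per-million scale (CPM), and intervals are exact 95% intervals that cover counting error only.

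Each member had its own distribution over the skin. Of 28074 Il33 UMIs, 67.0% were in IFE.B and 24.1% in IFE.SB, and of 25891 Il1r2 UMIs 68.1% were in IFE.B and 10.9% in Langerhans cells, which were a small part of the cells. Of 25890 Il18 UMIs 75.5% were in IFE.SB and 8.71% in Langerhans cells, and of 3668 Il1b UMIs 73.3% were in Langerhans cells. Il1rn (17724 UMIs) was spread over IFE.SB (42.2%), IFE.B (37.3%), uHF.SB (10.1%) and uHF.B (7.95%). The signalling receptor Il1r1 (9085 UMIs) and its partner Il1rap (6127 UMIs) were counted in all 13 types. Il1a was scarce, with 1341 UMIs, of which 51.4% were in IFE.SB, and Il1rl1 was almost not counted, with 51 UMIs in all.

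**Figure D1:**
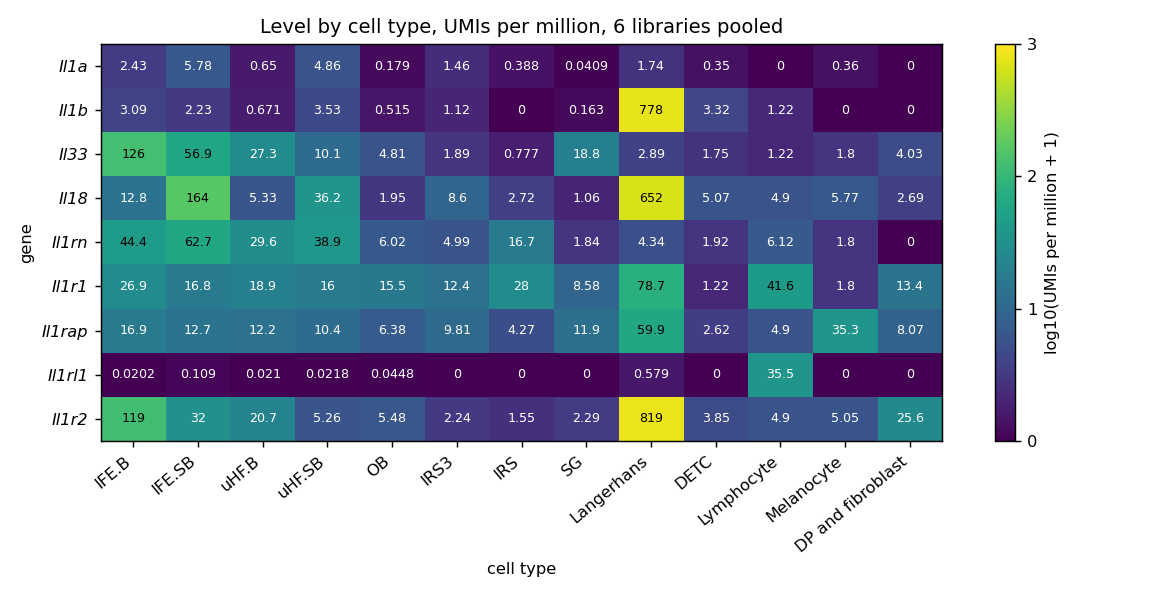
Level of the 9 members (rows) in 13 cell types (columns) in CPM, with the 6 libraries pooled. Colour shows log10(CPM + 1), and the number in each cell is the level. Il1b, Il18 and Il1r2 are highest in Langerhans cells (778, 652 and 819), Il33 is highest in IFE.B (126), and Il1rl1 is above 1 only in lymphocytes (35.5).

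In Langerhans cells Il1b, Il18 and the decoy receptor Il1r2 were far above the other types in most libraries, and all 3 varied over the time points. The exceptions were Il18, higher in IFE.SB at 0 h and about equal there at 6 d, and Il1r2, higher in IFE.B at 4 d. Il1b was 211 CPM at 0 h and then 2005, 300, 250, 119 and 1418 from 4 h to 6 d. The 4 h and 6 d libraries were thus high and the other 4 were low, and no interval of a high library reached that of a low one. The 4 h level was 9.49-fold that of 0 h (interval 6.99 to 13.2) and the 6 d level was 11.9-fold that of 4 d (8.90 to 16.2). The 0 h level rests on 42 UMIs in 7 of 40 cells, and the 4 d level on 49 UMIs in 10 of 102 cells. The intervals do not cover the uneven spread of UMIs over cells. The other types had Il1b levels of 0 to 8.33 CPM in each library apart from DETC at 4 h, where 17 UMIs in 4 of 344 cells gave 22.3 CPM, at least 4.19-fold above a floor of 3 counts at 0 h, where there was no UMI. The DETC sum at 4 h also held 60 UMIs of Cd74 and 12 of Cd207, genes of Langerhans cells, against 14 and 0 at 0 h. At 2 d it held 251 and 25, with 1 UMI of Il1b. The part of Langerhans RNA in the DETC value was not tested.

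Il18 in Langerhans cells was 196 CPM at 0 h and then 1497, 701, 353, 460 and 389 from 4 h to 6 d. It was highest at 4 h, 7.63-fold above 0 h (5.55 to 10.8), but unlike Il1b it was not high at 6 d. Il1r2 was 1469 CPM at 0 h and then 877, 460, 876, 46.2 and 1364 from 4 h to 6 d. The 4 d library stood apart as the low one, 19.0-fold below 2 d (12.1 to 31.6), with 19 UMIs in 102 cells, and 6 d was 29.5-fold above it (18.8 to 49.3). The receptor pair was lower and varied less. Il1r1 lay between 47.0 and 114 CPM, and Il1rap lay between 41.4 and 45.7 in 5 libraries and was 122 at 4 h. Il1rn was at most 10.1 CPM in Langerhans cells, below its level in IFE.B in all 6 libraries.

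**Figure D2:**
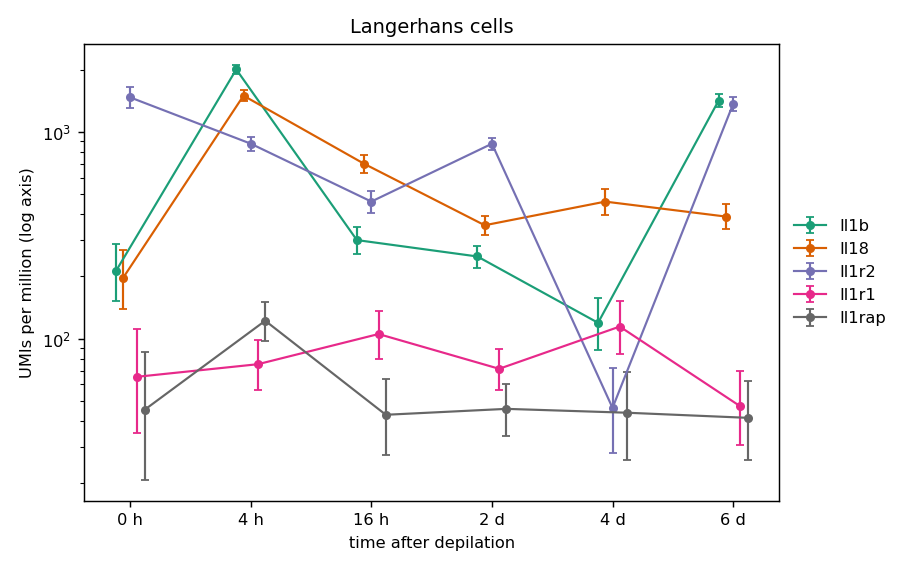
Level of 5 members in Langerhans cells at 6 time points, in CPM on a log axis, with exact 95% Poisson intervals as bars. Il1b is highest at 4 h (2005) and 6 d (1418), Il18 at 4 h (1497), and Il1r2 is lowest at 4 d (46.2).

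Over 8 cell types 11 of 51 pairs of a member and a cell type differed at least 4-fold between 4 h and 0 h, 7 higher and 4 lower, beside 9.48% of 81989 pairs of a gene and a cell type. The 2 sets were chosen differently. Members were compared where either library had more than 3 UMIs, whereas the 81989 pairs had passed the count filter over all 6 libraries. The same holds for the shares of genes given for 4 h against 0 h in single cell types. Il1b in DETC entered through its 4 h counts alone. At resolution 0.4 there were 8 such pairs, since Il33 and Il1rn in OB and Il1r2 in uHF.B were below 4-fold. At least 4-fold higher levels at 4 h than at 0 h were found for 2 of 6 members compared in Langerhans cells (Il1b and Il18), against 1.64% of 6201 genes, and none was at least 4-fold lower, against 2.61%. The fold of 4 was chosen after the levels were seen. These cells carried their defining markers in every library. All 8 Langerhans markers were counted, with a summed level of 72558 to 95293 CPM, and Cd207 (langerin) was counted in 96.2% to 100% of the cells. Macrophage markers summed to 1011 to 2255 CPM, with 5 to 7 of 7 counted, and neutrophil markers to 0 to 7.13 CPM, with 3 or more of 5 at 0. Mast cell markers were at 0 in every library. Among cells with a Cd207 UMI alone Il1b was 2005 CPM at 4 h and 1418 at 6 d, the same as over all cells, since all Langerhans cells at these times had one. At 16 h the Cd207 cells had 278 CPM.

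Not all Langerhans cells carried Il1b. After each cell was thinned to 2000 UMIs, a UMI was found in 15.8% of cells at 0 h and then 47.5%, 18.6%, 12.2%, 5.81% and 32.2% from 4 h to 6 d (17.5%, 51.2%, 22.9%, 13.8%, 9.80% and 37.9% unthinned). In OB cells, which are epithelial, the thinned share was at most 0.322%, and median depths were 3488 to 5007 UMIs per Langerhans cell and 4526 to 6887 per OB cell. The 10% of cells with the most Il1b held 59.3% of its UMIs at 4 h and 65.3% at 6 d. Il18 was more evenly spread, with thinned shares from 28.9% at 0 h to 84.6% at 4 h and 26.5% of UMIs in the top 10% of cells at 4 h. Il1r2 was counted in most Langerhans cells in 5 of 6 libraries, whether or not they had Il1b. Of 85 cells with Il1b at 4 h 72 also had Il1r2, against 143 of all 166 cells, and at 6 d 42 of 44 did, against 98 of all 116. At 4 d, when 16 of all 102 cells had Il1r2, none of the 10 cells with Il1b did.

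In IFE.B the 3 genes that limit or assist interleukin 1 signalling, Il1r2, Il1rn and Il1rap, were low in the same library, that of 4 h. Il1r2 was 158 CPM at 0 h and then 23.4, 157, 111, 146 and 139 from 4 h to 6 d. The level at 4 h was 6.78-fold below 0 h (6.26 to 7.34), and the other 5 libraries lay within 111 to 158. Il1rn was 62.7 CPM at 0 h and then 11, 45.1, 54.6, 52.5 and 54.9 from 4 h to 6 d, which put 4 h 5.69-fold below 0 h (5.06 to 6.41). Il1rap was 23.3, 3.73, 15.6, 23.9, 21.0 and 20.9 CPM in the same order, with 4 h 6.24-fold below 0 h (5.11 to 7.67).

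The alarm cytokine Il33 did not follow them. Il33 in IFE.B was 84.0 CPM at 0 h and then 123, 174, 106, 119 and 131 from 4 h to 6 d, so that 0 h was the lowest library and 16 h the highest, 2.08-fold above 0 h (1.98 to 2.18). Il1r1 was 31.6 CPM at 0 h, 19.6 at 4 h and 22.4 to 34.8 later. Il18 lay between 7.15 and 17.1 CPM, Il1a between 1.03 and 4.63, and Il1b between 2.26 and 3.67, with the lowest library at 4 h for Il18 and Il1a and at 0 h for Il1b.

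The 4 h library of IFE.B held many lower genes. Of 8 members compared, 3 were at least 4-fold lower at 4 h than at 0 h, beside 12.3% of 12926 genes, and none was at least 4-fold higher, beside 3.66%. The median gene differed by -0.18 on the log2 scale between 4 h and 0 h in IFE.B, and the log2 differences of the 3 members were larger than that shift. Since 4 h is 1 library, the time point and the library cannot be told apart. The markers of IFE.B and of its neighbours differed between these libraries as well. In IFE.B cells the 8 IFE.B markers summed to 25530 CPM at 0 h and 34795 at 4 h, the 9 OB markers to 8507 and 1750, and the 8 uHF.B markers to 8524 and 4986. The Inner bulge markers summed to 96.7 CPM at 0 h, with 8 of 8 counted, and to 831 at 4 h, with 7 of 8. Their part in the lower levels of Il1r2, Il1rn and Il1rap was not tested.

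**Figure D3:**
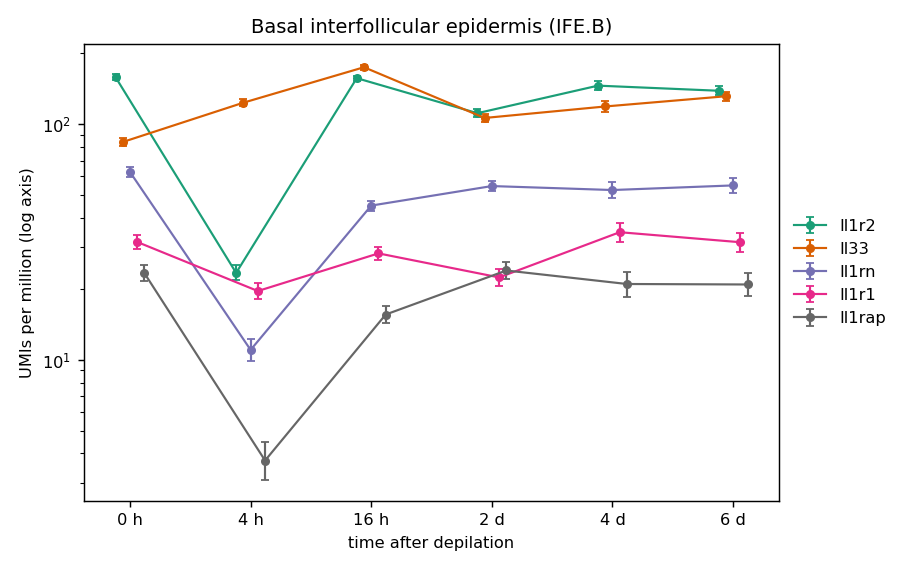
Level of 5 members in IFE.B cells at 6 time points, in CPM on a log axis, with exact 95% Poisson intervals as bars. Il1r2, Il1rn and Il1rap are lowest at 4 h (23.4, 11 and 3.73), whereas Il33 is lowest at 0 h (84.0).

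Il18 in IFE.SB covered a wide range over the time points. It was 253 CPM at 0 h and then 84.7, 120, 35.2, 18.8 and 386 from 4 h to 6 d. The 4 d level was 13.5-fold below 0 h (11.2 to 16.3), and 6 d was 20.5-fold above 4 d (17.1 to 24.9). These folds hold for the cells kept. Of 2658 Il18 UMIs in all barcodes of the 4 d library, only 743 were in cells that passed the filters and doublet removal. The 0 h library kept 6798 of 7132, and that of 6 d kept 9102 of 11014. With every barcode counted, the 4 d library had 27.8 CPM of Il18, still below the 96.5 of the 0 h library and the 124 of the 6 d library. IFE.SB was made of a cluster led by Mt4 and Krt1 (6297 cells) with a median of 10050 UMIs per cell, and a cluster with late envelope genes such as Lce1m and Lor among its leading genes (1447 cells, with a median of 32379 UMIs per cell), and the split was added after the levels were seen. In the Lce1 cluster Il18 was 497, 197, 326, 79.4, 25.5 and 818 CPM from 0 h to 6 d. In the Krt1 cluster it was 6.31, 8.05, 14.6, 9.62, 13.6 and 11.6 CPM. The Lce1 cluster was higher in all 6 libraries, and the range over time lay in that cluster.

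The share of the Lce1 cluster in IFE.SB moved less than its Il18. It was 20.6%, 17.4%, 15.7%, 17.7%, 18.3% and 22.4% of the cells from 0 h to 6 d. With predicted doublets kept the Lce1 cluster had 140 cells at 4 d in place of 88. At 0 h it had 304 in place of 297, and at 6 d 400 in place of 327. Il1a, the stored alarm cytokine, followed Il18 at both ends, with 14.7 CPM at 0 h, only 2.95 at 4 d but 25.9 by 6 d in the Lce1 cluster, against 0.867 to 3.98 in the Krt1 cluster. Il1rn was higher in the Lce1 cluster than in the Krt1 cluster in all 6 libraries, with 41.2 to 131 against 16.8 to 55.5 CPM. Il33 was the opposite, with 6.25 to 24.9 CPM in the Lce1 cluster and 40.6 to 109 in the Krt1 cluster. In IFE.SB as a whole Il33 was 23.3 CPM at 0 h and 53.8 to 73.7 at the later time points, 3.16-fold above 0 h at 4 h (2.86 to 3.49).

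**Figure D4:**
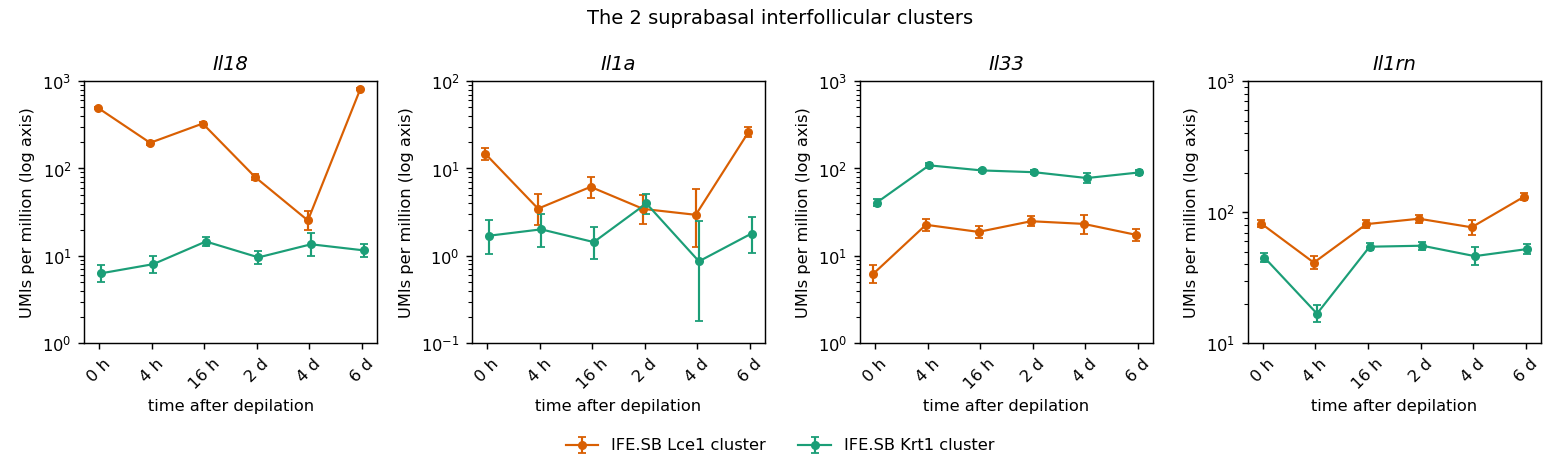
Level of Il18, Il1a, Il33 and Il1rn in the 2 clusters of IFE.SB at 6 time points, in CPM on a log axis, with exact 95% Poisson intervals as bars. Il18 ranges from 25.5 to 818 in the Lce1 cluster and from 6.31 to 14.6 in the Krt1 cluster, and Il33 is higher in the Krt1 cluster throughout.

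In the upper follicle Il33 was higher at 4 h than at 0 h, and in OB Il1r1 was, while the 4 h levels of Il33 and Il1rn in OB depended on the clustering. In uHF.SB, Il33 was 3.89 CPM at 0 h and then 74.1, 17.3, 7.03, 2.92 and 2.48 from 4 h to 6 d, and 4 h was 19.0-fold above 0 h (11.1 to 35.5). The share of uHF.SB cells with an Il33 UMI after thinning was 1.15% at 0 h and 7.75% at 4 h. In uHF.B, Il33 was 14.6 CPM at 0 h, 48.4 at 4 h, 51.4 at 16 h and 9.90 to 31.1 afterwards. Il33 in OB was 4.53 CPM at 0 h, 25.7 at 4 h and 1.39 to 10.1 at the other time points. Il33 was thus higher at 4 h than at 0 h in uHF.SB, uHF.B and both interfollicular types. In OB it was not higher with the finer clustering, since at resolution 0.4 Il33 was 5.06 CPM at 0 h and 2.97 at 4 h. Among the OB cells of 4 h, Il33 was 51.4 CPM (40.5 to 64.3) in the 351 that the finer clustering named Inner bulge and 2.44 (0.665 to 6.25) in the 307 that kept the name OB, a split added after the levels were seen.

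Il1rn in OB was 3.63 CPM at 0 h and then 34.3, 11.2, 5.05, 2.41 and 3.24 from 4 h to 6 d. The 4 h level was 9.47-fold that of 0 h (4.63 to 22.5), in the library in which Il1rn was lowest in IFE.B. In uHF.SB, Il1rn was 36.7 CPM at 0 h and 89.0 at 4 h, and in uHF.B it was 46.8 at 0 h and 34.6 at 4 h. Il1r1 in OB was 3.17 CPM at 0 h, 27.6 at 4 h and 10.1 to 17.1 at the other time points, and 4 h was 8.70-fold above 0 h (4.04 to 22.3). At resolution 0.4 Il1rn in OB was 5.06 CPM at 0 h and 10.1 at 4 h, whereas Il1r1 was 3.37 and 26.2. In the split of the 4 h cells Il1rn was 61.5 CPM (49.5 to 75.5) in those named Inner bulge and 9.77 (5.58 to 15.9) in the others, and Il1r1 was 31.1 (22.8 to 41.5) and 24.4 (17.4 to 33.3), so the intervals met for Il1r1 alone. With predicted doublets kept the levels at 0 h and 4 h in OB were 6.84 and 28.7 for Il1rn, 9.23 and 27.0 for Il33 and 6.50 and 25.9 for Il1r1. The 0 h values of OB rest on few counts, with 8 UMIs of Il1rn, 7 of Il1r1 and 10 of Il33 in 386 cells.

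The marker genes of the follicle moved between the same 2 libraries. In OB cells the 9 OB markers summed to 19868 CPM at 0 h and 7336 at 4 h, the IFE.B markers to 9195 and 19612, and the uHF.SB markers to 2838 and 4985. The Inner bulge markers were higher at 4 h in OB (458 and 3751 CPM), in uHF.B (78.2 and 2714) and in uHF.SB (418 and 3736), with 8 of 8 counted at 0 h and 7 of 8 at 4 h in OB. Their part in the levels of Il33, Il1rn and Il1r1 was not tested.

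The decoy receptor followed another course in uHF.B. Il1r2 was 6.15 CPM at 0 h and then 1.49, 12.3, 20.3, 34.0 and 37.8 from 4 h to 6 d. In OB it was 16.0 CPM at 6 d and at most 8.02 at the other time points. At least 4-fold higher levels at 4 h than at 0 h were found for 3 of 7 members compared in OB (Il33, Il1rn and Il1r1, of which only Il1r1 was at resolution 0.4 and only Il1rn with predicted doublets kept), beside 3.85% of 11397 genes, and for 1 of 8 in uHF.SB (Il33), beside 3.06% of 11681. None was at least 4-fold lower in OB or uHF.SB, beside 7.49% and 3.86% of genes. In uHF.B Il1r2 alone was at least 4-fold lower, though not at resolution 0.4, of 8 members, beside 7.85% of 11633 genes, and none was at least 4-fold higher, beside 3.59%.

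Il1rl1, the receptor for interleukin 33, had no UMI in 6 of 13 types. Of its 51 UMIs, 29 were in 15 of 292 lymphocytes (5.14% of cells, interval 2.90% to 8.33%), in 5 of the 6 libraries. Among these 15 cells 9 had a UMI of Foxp3, a regulatory T cell factor, against 20 of all 292 lymphocytes. Icos was counted in 14 of the 15 and in 161 of the 292, Cd3e in 9 and 117, and Il7r in 10 and 211, whereas Trdc was in none of the 15 and in 116 of the 292. Of the other UMIs 13 were in 12 of 7744 IFE.SB cells. No UMI was found in 2426 DETC, for which the exact 95% upper bound was 0.152% of cells with a UMI. Il1rap, the chain shared by both receptors, was also found in melanocytes, with 18.5 to 93.6 CPM over the libraries, and in SG, with 9.88 to 20.8.

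The comparison of suprabasal with basal cells asks how the members differ between the layers, with the 6 libraries as pairs. In IFE, Il18, Il1a and Il1rn were higher in the suprabasal layer and Il1r2, Il33 and Il1r1 were lower, in edgeR's quasi-likelihood test with Benjamini-Hochberg adjustment over 13478 genes. The 3 higher and 3 lower of 8 members tested stand beside 29.7% of all genes called higher and 33.1% called lower. Il18 was 150 ± 143 CPM in IFE.SB and 13.1 ± 3.93 in IFE.B (mean ± SD over 6 libraries), a log2 fold of 3.19 (adjusted p = 0.00135). It was higher in 6 of 6 libraries and the ranges did not overlap. These calls hold for IFE.SB as a whole. In its Krt1 cluster alone Il18 was 6.31 to 14.6 CPM, against 7.15 to 17.1 in IFE.B. Il1a was 0.867 to 3.98 CPM in that cluster, against 1.03 to 4.63. Il1rn in the Krt1 cluster was below IFE.B at 0 h, 4 d and 6 d and above it at 4 h, 16 h and 2 d. The higher Il18 of IFE.SB thus lay in the Lce1 cluster. The Krt1 cluster was not tested against IFE.B. Il1r2 was 33.0 ± 9.39 CPM in IFE.SB and 122 ± 51.4 in IFE.B (log2 fold -1.54, adjusted p = 0.000245), and was lower in 6 of 6 libraries.

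Il33 was lower in the suprabasal layer in 6 of 6 libraries (57.1 ± 18.2 and 123 ± 30.1 CPM, log2 fold -0.96, adjusted p = 0.000255), and so was Il1r1 (17.5 ± 6.07 and 28.0 ± 5.91 CPM, log2 fold -0.52). Il1rn was higher in 6 of 6 libraries (61.7 ± 20.1 and 46.8 ± 18.4 CPM, log2 fold 0.69). Il1a was higher in 5 of 6 (5.41 ± 4.36 and 2.81 ± 1.34 CPM, log2 fold 1.11, adjusted p = 0.0289), and this call was lost without the 0 h, 4 h, 16 h or 6 d library, with adjusted p of 0.0622 to 0.0969. Il1b was 2.30 ± 0.667 and 2.97 ± 0.611 CPM (log2 fold -0.23, adjusted p = 0.21) and Il1rap was 12.6 ± 3.74 and 18.1 ± 7.61 CPM (log2 fold -0.19, adjusted p = 0.333), neither of which passed, although Il1rap was called without 4 h (adjusted p = 0.0134).

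In the upper follicle 4 of 8 members were higher in uHF.SB than in uHF.B and 2 were lower, beside 28.1% and 30% of 12310 genes. Il1a was 5.41 ± 3.65 CPM in uHF.SB and 0.711 ± 0.468 in uHF.B (log2 fold 3.02, adjusted p = 0.000289), and Il18 was 32.9 ± 21.5 and 4.95 ± 2.18 CPM (log2 fold 2.79), both higher in 6 of 6 libraries. Il1b was 3.53 ± 1.85 and 0.674 ± 0.212 CPM (log2 fold 2.51), again higher in 6 of 6. The uHF.B side rests on few counts, 31 UMIs of Il1a and 32 of Il1b over the 6 libraries, with 3 to 10 of Il1b in each. Neither gene passed the count filter in uHF.B alone, so both entered this comparison through uHF.SB, where they were higher. With no count filter the log2 folds were 3.01 for Il1a and 2.48 for Il1b, and both were still called. Il1r2 was 4.67 ± 1.72 CPM in uHF.SB and 18.7 ± 14.8 in uHF.B (log2 fold -1.78), lower in 5 of 6 libraries. Il1rn (log2 fold 0.64, adjusted p = 0.023) and Il33 (log2 fold -1.28, adjusted p = 0.0217) passed narrowly. Il33 was lower in 5 of 6 libraries, the exception being 4 h, and its call was lost without the 0 h, 16 h, 2 d, 4 d or 6 d library (adjusted p of 0.0585 to 0.0782), that of Il1rn without 4 h, 16 h or 6 d (0.0582 to 0.0753). With no count filter neither was called (adjusted p = 0.0725 for Il33 and 0.0929 for Il1rn), and with predicted doublets kept the log2 fold of Il33 was -0.67 (adjusted p = 0.106). Il1r1 (17.2 ± 3.17 and 19.7 ± 6.32 CPM) and Il1rap (11.1 ± 2.38 and 11.9 ± 4.86 CPM) did not pass.

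The layer difference of Il1b was larger in the upper follicle than in IFE, by 2.75 on the log2 scale (adjusted p = 0.000477, edgeR), in a test added after the levels were seen that called 9.45% of 12869 genes and none of the other 7 members tested. Cd74, a gene that Langerhans cells express strongly, was also counted in keratinocyte sums, and the part of Langerhans RNA in Il1b there was not tested. Per 100 UMIs of Cd74, Il1b had 0.306 to 4.99 UMIs in Langerhans cells, 2.66 to 33.2 in uHF.SB and 1.58 to 4.00 in uHF.B. It had 1.99 to 12.1 in IFE.SB and 10.2 to 35.7 in IFE.B. The ratio in Langerhans cells itself differed between libraries, from 0.306 at 4 d to 4.99 at 4 h.

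**Figure D5:**
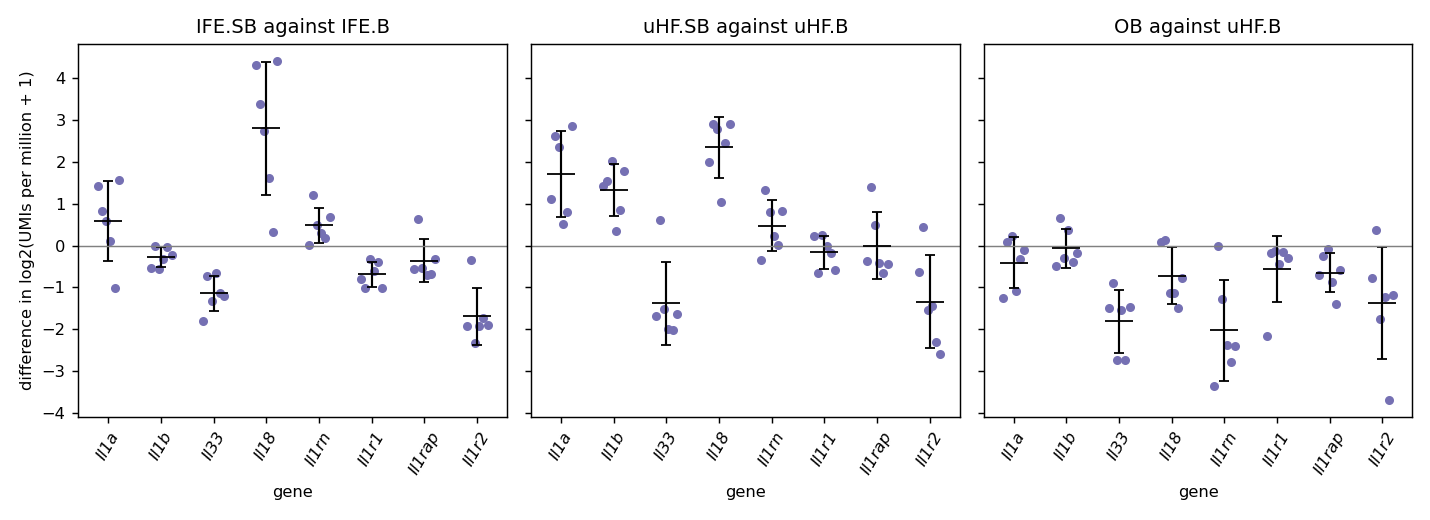
Difference of 8 members between paired cell types in log2(CPM + 1), for IFE.SB against IFE.B, uHF.SB against uHF.B and OB against uHF.B. Points are the 6 libraries, and black bars are the mean ± SD. Il18 is above 0 in all 6 libraries in both suprabasal comparisons, Il33 is below 0 in all 6 in IFE.SB and in OB.

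OB, which holds the resting stem cells of the follicle, was compared with uHF.B as the neighbouring basal compartment. Il1rn, Il33, Il1r2 and Il1rap were lower in OB and none of 6 members tested was higher, beside 9.45% and 13.3% of 12637 genes called lower and higher. Il1rn was 9.98 ± 12.3 CPM in OB and 30.6 ± 9.35 in uHF.B (log2 fold -2.30, adjusted p = 0.00982), lower in 6 of 6 libraries, and at 4 h the values nearly met, 34.3 and 34.6 CPM. Il33 was 8.58 ± 8.91 and 28.4 ± 18.2 CPM (log2 fold -2.18) and Il1rap 6.92 ± 2.39 and 11.9 ± 4.86 CPM (log2 fold -0.92), both lower in 6 of 6. Il1r2 was 5.68 ± 5.54 and 18.7 ± 14.8 CPM (log2 fold -2.0, adjusted p = 0.0264), lower in 5 of 6, and it was not called without 2 d or 6 d (adjusted p of 0.0563 and 0.0643). Its call was also lost with no count filter (adjusted p = 0.0734), and with predicted doublets kept its log2 fold was -0.88 (adjusted p = 0.101). With doublets kept that of Il33 was -1.09, still called (adjusted p = 0.00597). At resolution 0.4, without the cells then named Inner bulge, the calls of Il1rn (log2 fold -2.78), Il33 (-2.57), Il1r2 (-2.12) and Il1rap (-1.06) held. Il18 (log2 fold -1.23, adjusted p = 0.0527) and Il1r1 (log2 fold -0.63, adjusted p = 0.113) did not pass, but Il18 was called without 0 h or without 4 h (adjusted p of 0.034 and 0.0329), at resolution 0.4 (0.0325), with doublets kept (0.0302) and with no count filter (0.0291), and Il1r1 without 0 h (0.0481). Without the pairing by library none of the 4 was called (adjusted p of 0.109 to 0.148).

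Whether a member followed a course over the time points was tested with a spline of the hours with 3 degrees of freedom in edgeR, in the 9 types with at least 20 cells in every library. Of 45 pairs of a member and a cell type tested none passed, with 6 at an unadjusted p under 0.05. Over all genes the same test called 0% in IFE.B, 0% in IFE.SB, 0% in uHF.B, 0% in uHF.SB, 0.0175% in OB, 1.06% in IRS3, 0.0161% in Langerhans cells, 0.0423% in DETC and 5.47% in melanocytes. In Langerhans cells the levels of Il1b, Il18 and Il1r2 given above thus come without a call over time. A smooth curve over the hours follows a change confined to 4 h poorly, so the lack of a call does not show a steady level. Il1r2 in IFE.B, 6.78-fold lower at 4 h than at 0 h, had an unadjusted p of 0.974 in this test. With time as log2(hours + 1), Il1rn in OB (adjusted p = 0.00471) and Il33 in uHF.SB (adjusted p = 0.041) passed, beside 10.8% of genes in OB and 1.38% in uHF.SB. Over all settings tried the adjusted p ran from 9.85e-14 to 1.00 for Il1rn in OB and from 0.000855 to 1.00 for Il33 in uHF.SB. DESeq2 called Il18 in IFE.SB alone. Leaving out the 0 h library gave 11 called pairs and leaving out 4 h gave 9, with only 5 libraries for 4 coefficients.

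The members were ordered by mean CPM over the same 9 types, and neighbours in the order were compared by an exact paired permutation test over the 6 libraries, whose smallest two-sided p is 0.0313. Of 72 neighbour pairs 12 reached that p, and 0 passed after adjustment, the smallest adjusted p being 0.188. Langerhans cells came first for Il1b (717 ± 795 CPM, then DETC with 3.93), Il18 (599 CPM, then IFE.SB with 150), Il1r2 (849 CPM, then IFE.B with 122), Il1r1 (79.8 CPM, then IFE.B with 28.0) and Il1rap (56.8 CPM, then melanocytes with 41.8). The gaps of Il1b and Il1r1 at the top held in 6 of 6 libraries, those of Il18 and Il1r2 in 5 of 6. For Il18 these include 6 d, when Langerhans cells had 389 CPM and IFE.SB 386. Il33 followed the order IFE.B (123 CPM), IFE.SB (57.1) and uHF.B (28.4), each above the next in 6 of 6 libraries. Il1a was as high in uHF.SB as in IFE.SB (5.41 CPM each), which did not differ beyond their spread.

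The genes whose log2(CPM + 1) was most like that of a member over the 54 sums of cell type and library were listed from 10180 genes with a mean of at least 5 CPM. Il1b was closest to Csf2rb2, Spi1 and Fcgr2b (Pearson r 0.94, 0.94 and 0.93), which are genes of myeloid cells. Il1a was closest to Il1f9 (0.79), the interleukin 36γ gene, ahead of Sdcbp2 and Klk11 (both 0.78). Il33 was closest to Wnt3 (0.87), Il18 to Tspan8 (0.86), Il1rn to Gm15987 (0.90), Il1r1 to Gna15 (0.89), Il1rap to Sash1 (0.77) and Il1r2 to Ccrl2 (0.85). These sums share libraries and cells, so the values describe the pattern only.

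A list of 55 further genes of the pathway was counted in the files in full. Over time 2 of the 287 pairs of a listed gene and a cell type tested passed on the scale of hours, Nfkbia (adjusted p = 0.0228), the NF-kB inhibitor, and Rela (adjusted p = 0.0233), an NF-kB subunit, both in melanocytes, where 5.47% of 4315 genes were called. Between layers 23 of 48 listed genes tested were higher in IFE.SB than in IFE.B and 9 were lower, with a median log2 fold of 0.27, beside 29.7% and 33.1% of all genes. In uHF.SB 20 of 45 were higher than in uHF.B and 5 lower, with a median of 0.42, beside 28.1% and 30%. In OB against uHF.B 2 of 42 were higher and 16 lower, with a median of -0.43, beside 13.3% and 9.45%. The calls sat in part in close relatives of the members. Of 6 further family genes 5 were higher in IFE.SB than in IFE.B, and 4 of 4 tested were higher in uHF.SB than in uHF.B, among them the interleukin 36 genes Il1f6 (log2 fold 6.18 in IFE), Il1f8 (6.46) and Il1f9 (2.85) and the antagonist Il1f5 (3.72), of which Il1f6, Il1f8 and Il1f5 were chosen as examples after their values were seen. In OB against uHF.B only 2 of the 6, Il1f9 and Il1f5, passed the count filter. Il1f6 and Il1f8 thus entered the upper follicle comparison through uHF.SB, where they were higher, so the 4 of 4 is not a free count.

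Among the signalling genes with the highest keratinocyte levels, Nfkbia was 3280 CPM at 0 h and then 1266, 1196, 1840, 1271 and 2647 from 4 h to 6 d in IFE.B. Tnfaip3, a brake on NF-kB, was 359, 43.4, 159, 221, 214 and 236 CPM there, so that 4 h was the lowest library, as for Il1r2. Icam1, an adhesion molecule and target of the pathway, was 338 CPM at 0 h and 62.1 at 4 h. Capn2, a calpain subunit of the protease family that processes interleukin 1α, was 12.8 CPM at 0 h, 217 at 4 h and 9.11 to 19.6 later. Pycard, the inflammasome adaptor, was higher in IFE.SB than in IFE.B (log2 fold 1.94) and in uHF.SB than in uHF.B (log2 fold 1.31). Nfkbiz, Nfkb1 and Peli1 were the others among the 8 highest. In Langerhans cells and DETC the 8 highest were Nfkbia, Tnfaip3, Peli1, Nfkb1, Cxcl2, Pycard, Ikbkb and Tab2. Cxcl2, a neutrophil chemoattractant, was 19.5 to 384 CPM in Langerhans cells, lowest at 4 d as was Il1r2, and at most 2.63 in DETC.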

How the data were processed

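Single-cell RNA-seq libraries of the 10x type were supplied by the authors as deposited gene by cell tables of raw counts (UMIs), made with Cell Ranger 6.1.2 against mm10 according to the submitters' processing notes. Barcodes with 500 to 7000 genes and at most 10% mitochondrial UMIs were kept, and the barcodes with the highest Scrublet scores (a share that grew with the number of barcodes, 4675 in all) were removed, since Scrublet's own threshold called 0 or 1 in most libraries. Cells were integrated and clustered with Seurat 5.3.0 (2000 variable genes, 30 principal components, resolution 0.2) without the members, pathway genes and cell cycle genes, and clusters were named from markers. UMIs were summed per cell type and library. edgeR 4.0.16 quasi-likelihood tests, adjusted by Benjamini-Hochberg over all genes at 0.05, used library as a block between cell types and a spline over time. Each time point is 1 library of pooled mice, so no p-value measures the spread between replicate libraries or mice. Between cell types p-values reflect how the difference within a library varies over the 6 libraries, which are also the time points. Over time they reflect the scatter of the libraries about the spline. Neighbouring types were compared by exact two-sided sign-flip permutation of log2(CPM + 1). Intervals were exact Poisson for levels and Clopper-Pearson for shares, and shares used cells thinned to 2000 UMIs. Genes named by rule were the members, pathway genes called over time or among the 8 highest in keratinocytes or immune cells, and the 3 genes most similar to each member. The members, lists and tests were chosen with earlier results of these data known. DESeq2 1.42.0, RLE size factors, no count filter, other time scales, doublets kept, resolution 0.4, no library block and leaving out each library were the alternatives.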

Additional observations from a re-analysis of the deposited data

Results flagged for a closer look

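Il1b was set apart by a test of the difference between the upper follicle and the interfollicular epidermis, which was added after the levels were seen. Its suprabasal minus basal log2 fold was larger in the upper follicle by 2.75 (adjusted p = 0.000477, edgeR), and leaving out each library gave 2.42 to 2.99 with adjusted p of 0.000175 to 0.00922. The level was higher in uHF.SB than in uHF.B in 6 of 6 libraries and lower in IFE.SB than in IFE.B in 6 of 6. The difference within IFE was not called (log2 fold -0.23, adjusted p = 0.21, edgeR). These are low levels, at most 5.79 CPM, in sums that also hold UMIs of Cd74, a gene of Langerhans cells, and the part of Langerhans RNA in the difference was not tested. In uHF.B the 6 libraries held 32 Il1b UMIs in all, and Il1b did not pass the count filter in uHF.B alone.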

How the results depend on the processing

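The number of members called without the library block was 3 instead of 6 for IFE.SB against IFE.B, 3 instead of 6 for uHF.SB against uHF.B and 0 instead of 4 for OB against uHF.B. Leaving out each library gave 5 to 6, 4 to 5 and 3 to 6 calls. For the time course, 0 pairs were called on hours, 2 on log2(hours + 1), 1 on ranks, 2 with no count filter, 1 with DESeq2 and 0 to 11 when a library was left out. In uHF.SB against uHF.B the log2 folds of Il1r1 and Il1rap, which did not pass, changed sign with doublets kept (0.019 and -0.010) and when a library was left out, with ranges of -0.11 to 0.11 (positive without 4 h or 6 d) and -0.14 to 0.16 (negative without 4 h or 16 h). The difference between the follicle and interfollicular effects, not called for these genes, changed sign for Il18 without 0 h (range -0.92 to 0.0072), for Il1rn without 4 h (-0.12 to 0.20), for Il33 without 2 d or 4 d (-0.78 to 0.20) and for Il1r2 without 6 d (-0.32 to 0.068). The cause was not tested. Of 263 values of the contrasts 218 kept their direction and side of the threshold. At resolution 0.4 the pairs at least 4-fold apart between 4 h and 0 h were 8 instead of 11, and Il33 in OB was 2.97 CPM at 4 h and 5.06 at 0 h instead of 25.7 and 4.53. Of 732 levels 94 moved by more than their interval, 87 of them with doublets kept. IRS3 had too few cells in a library at resolution 0.4 and gave no value there. No paired analysis by replicate number was possible because each time point has 1 library.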
